A study of Homo sapiens with 36 samples.

Results

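The 44 genes described here encode the signal-passing chains of the B-cell receptor and the proteins that carry or damp its signal. They were chosen by symbol, and all 44 were matched through GENCODE v44 (GRCh38) to an identifier among the 58302 Ensembl genes counted. By textbook role, 32 were grouped as activators, 9 as inhibitors and 3 (LAT2, BANK1 and PRKCD) as genes with both roles. RNA had been sequenced from JEKO, MINO and UPN-1, 3 established lines of mantle cell lymphoma, a cancer of mature B cells in which cyclin D1 is overexpressed. Each line was exposed to the vehicle DMSO alone or to GS716054, which the labels name as a KDM5 inhibitor, and RNA was taken after 24 or 72 h. That gave 12 groups of 3 biological replicates. KDM5 enzymes remove methyl marks from histone H3 at active gene starts. The dose and any genotype of the lines are not given in the sources used here, and every group shared the same growth medium, so the groups differ only in line, agent and time as far as the labels say.

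In a B cell, antigen binding leads Src-family kinases to phosphorylate the cytoplasmic tails of CD79A and CD79B, which recruit and switch on the kinase SYK. SYK, the adaptor BLNK and the kinase BTK together activate the phospholipase PLCG2, whose products release calcium and activate protein kinase C, leading to NFAT and NF-kappaB activity. Another branch runs through phosphoinositide 3-kinase and AKT1. Inhibitory receptors such as CD72 and SIGLEC10 recruit the phosphatase PTPN6, and the lipid phosphatase INPP5D removes the lipid that anchors BTK. BTK and the delta isoform of phosphoinositide 3-kinase are drug targets in mantle cell lymphoma.

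Reads assigned to genes ranged from 8784815 to 14970876 per library (median 11926903), and 18615 to 24533 genes had at least 1 read. No pair of libraries held identical counts. Levels are given as CPM, counts scaled to the TMM-adjusted size of each library, and, where genes are compared with each other, as CPM per kilobase of annotated exon. Where a gene had 0 counts, its level may still be as high as 0.2 CPM (deepest library) to 0.341 CPM (shallowest). As the labels imply, CCND1, the cyclin D1 gene, lay between 1208 and 3091 CPM and the B-cell transcription factor gene PAX5 between 107 and 367 CPM in all 36 libraries. The T-cell gene CD2 and the myeloid gene MPO had 0 counts in all 36. Other T-cell genes were read, with TRAC at 32.3 to 172 CPM, CD4 up to 40.3 and CD8A up to 28.9. The other myeloid genes listed stayed at or below 6.22 CPM. Of the other mantle cell lymphoma markers, SOX11 lay between 63 and 360 CPM and CD5 between 0.834 and 102, lowest in UPN-1. The second DMSO library of MINO at 72 h stood apart from its 2 replicates. The treated library of the same number deviated from its own group mean together with it (r = 0.551 between their deviations). Without that DMSO library alone, the MINO 72 h comparison called 1518 genes, against 835 with it. That fit keeps the treated library of the pair, and the members that gained a call in it are named with the MINO 72 h results. Because these are bulk libraries, fewer cells expressing a gene and less RNA per cell cannot be told apart.

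A treatment difference is GS716054 minus DMSO on the log2 scale, tested with edgeR's quasi-likelihood test on the 12 libraries of a line. A gene was called, and is said to have risen or fallen, where its p, adjusted by Benjamini-Hochberg across every gene of the same comparison, was below 0.05. After a filter on low counts, 43 of the 44 genes were tested in JEKO (not CR2), 44 in MINO and 40 in UPN-1 (not CR2, ZAP70, LCP2 or LILRB1). Libraries with the same replicate number deviated together within a time, so each result is also given with the replicate number as a block within each time, where that changes the calls. This blocked fit was chosen after the calls of the main test and of a planned block over both times had been seen, and calls that only it made are stated as such. In brackets, the log2 difference (where not already given) comes first, then its SE where given, then the adjusted p of the main test and, after the word block, the adjusted p with the block within each time.

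To place the results on sequence, the stretches before the starts of 4 genes whose calls recur below are shown, 5′ to 3′ on the gene's own strand, from RefSeq's promoter table (GRCh38.p14). Each is the part of the 250 bases before an annotated start that overlaps no GENCODE v44 exon. Capitals mark the letters GGAA (the core bound by ETS factors) and CCCNNGGG (letters found in sites of the B-cell factor EBF) on either strand.
CD79A, chr19:41877029-41877278, plus strand: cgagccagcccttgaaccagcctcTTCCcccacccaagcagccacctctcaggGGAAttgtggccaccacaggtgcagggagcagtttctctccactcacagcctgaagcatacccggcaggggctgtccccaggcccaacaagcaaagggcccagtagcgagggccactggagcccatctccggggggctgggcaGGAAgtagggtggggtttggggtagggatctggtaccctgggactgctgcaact
SIGLEC10, chr19:51417804-51417892, minus strand: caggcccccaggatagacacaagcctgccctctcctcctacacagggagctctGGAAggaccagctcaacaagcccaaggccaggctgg
HCLS1, chr3:121660928-121661153, minus strand: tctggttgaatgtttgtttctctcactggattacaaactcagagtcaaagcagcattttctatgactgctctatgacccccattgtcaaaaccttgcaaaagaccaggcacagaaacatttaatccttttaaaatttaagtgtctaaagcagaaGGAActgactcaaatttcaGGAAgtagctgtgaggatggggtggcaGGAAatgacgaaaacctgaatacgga
NFATC1, first listed start, chr18:79395680-79395855, plus strand: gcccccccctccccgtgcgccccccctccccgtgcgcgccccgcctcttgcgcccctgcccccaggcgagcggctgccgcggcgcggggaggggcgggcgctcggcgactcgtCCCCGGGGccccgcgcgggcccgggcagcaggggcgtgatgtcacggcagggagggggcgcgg
NFATC1, second listed start, chr18:79400049-79400273, plus strand: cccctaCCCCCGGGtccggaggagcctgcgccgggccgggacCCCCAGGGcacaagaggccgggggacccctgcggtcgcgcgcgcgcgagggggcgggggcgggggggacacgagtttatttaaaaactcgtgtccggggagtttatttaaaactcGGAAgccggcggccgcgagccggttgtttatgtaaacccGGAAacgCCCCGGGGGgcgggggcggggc
These windows differ in their content of CpG, the C-then-G dinucleotide. The full 250 bases held 4 CpG before CD79A, 4 before SIGLEC10 and 2 before HCLS1, 3 genes that rose in MINO or JEKO, and 34 and 32 before the starts of NFATC1, which fell in MINO. These 4 genes were picked by their calls and do not stand for the set, whose values are given further below. For comparison, 29.3% of 35116 annotated starts had fewer CpG than CD79A or SIGLEC10, 14.7% had fewer than HCLS1, and 93.2% and 90.5% had fewer than the starts of NFATC1. Of the 44 genes, 39 were in the table, with 71 starts. CBL, CD79B, CD81, LAT2 and NCKAP1L were not. The 71 starts held a median of 8 CpG, against 11 over all starts. CCCNNGGG, searched on both strands, was in 33.8% of the 71 windows and in 17.1% of all windows of that length. GGAA was in 94.4% and 92.7%, the E-box letters CANNTG in 62% and 61.8%, and the octamer ATGCAAAT, the letters bound by OCT factors of B cells, in 1.41% and 1.63%. A match of letters is a description of the window and no evidence of binding.

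In DMSO at 24 h, the receptor chains were the most abundant of the set in every line per kilobase of exon. By CPM without the length, other genes stood above 1 of the chains. In JEKO, SYK at 500 CPM lay above CD79A at 388. In MINO, PTPN6 at 588 and INPP5D at 563 lay above CD79B at 532. In UPN-1, CD81 at 529 lay above CD79A at 480. Per kilobase, CD79A stood at 289 ± 29.8 CPM (SD, n = 3) and CD79B at 253 ± 22.7 in JEKO, and SYK followed at 96 ± 2.23. In MINO, CD79A reached 816 ± 132 CPM per kilobase, CD79B 250 ± 13.6, and the inhibitory phosphatase gene PTPN6 117 ± 11.5. UPN-1 had CD79B at 377 ± 30.2 CPM per kilobase and CD79A at 357 ± 33, whose spreads overlap, and then PIK3AP1, an adaptor that brings phosphoinositide 3-kinase to the receptor, at 80.3 ± 10.1. At the other end, RASGRP3 was at 0.0889 ± 0.044 CPM per kilobase in MINO, and CR2, a complement receptor that lowers the threshold for B-cell activation, had 0 counts in the DMSO 24 h libraries of JEKO and UPN-1. The plot of untreated levels shows the order of the 44 genes in each line.

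**Figure D1:**
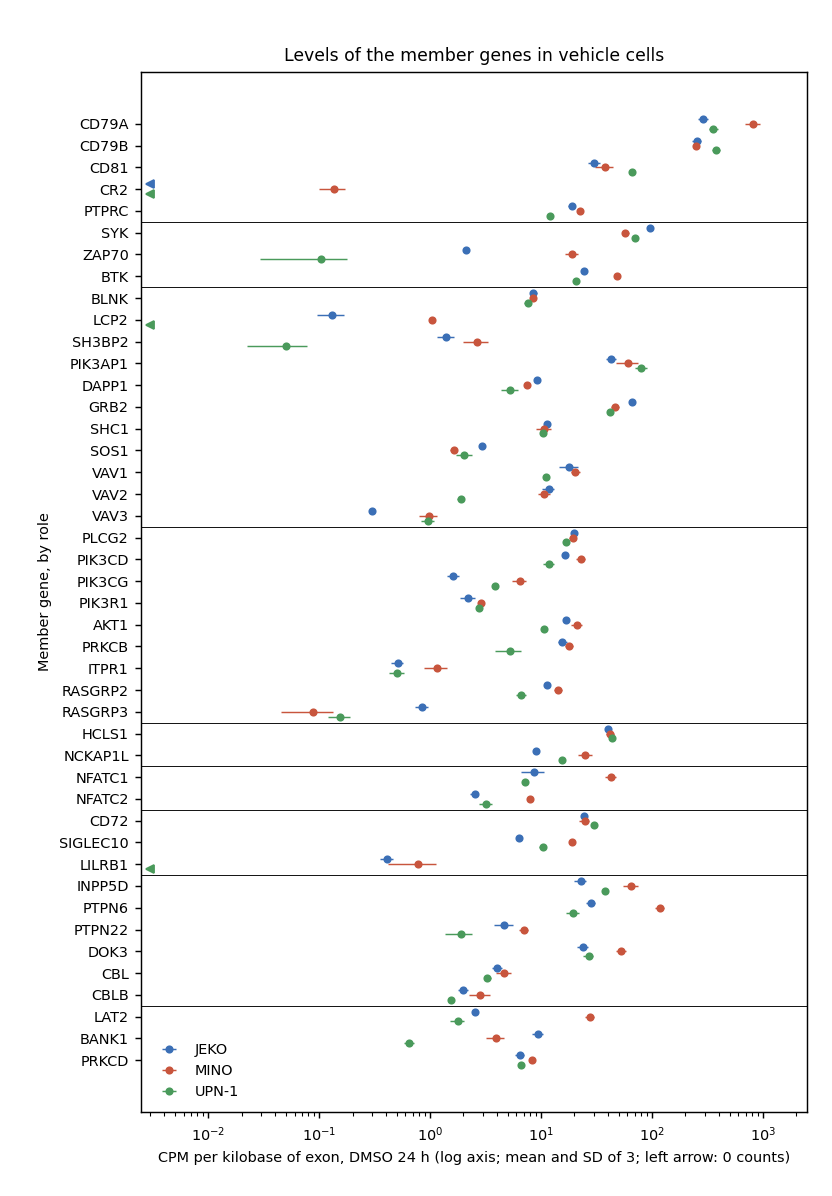
Levels of the 44 genes in DMSO at 24 h, in CPM per kilobase of exon, for JEKO, MINO and UPN-1 (3 libraries a line). CD79A and CD79B are the highest in each line, and CR2, LCP2 and LILRB1 have a line with 0 counts.

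More genes of the set were higher than lower in MINO against either other line, inhibitors included. In the 36-library fit, 23 of 44 genes were higher in MINO than in JEKO and 5 were lower, where 22% of all 17980 genes tested were higher and 25.9% lower. Of the 9 inhibitors, 6 were higher and 0 lower. UPN-1 had 8 genes higher and 19 lower than JEKO (21.2% and 23.8% of all genes), with 2 inhibitors higher and 3 lower. Against MINO, UPN-1 had 2 genes higher (CD79B and CD81) and 29 lower (23.3% and 21.1% of all genes), and 8 of 9 inhibitors were among the lower ones. The median difference of the 44 genes was 0.42 on the log2 scale for MINO minus JEKO, with -0.07 for all genes. For UPN-1 minus MINO it was -0.88 (-0.89 with genes at 0 counts set to their bound), with 0.03 for all genes. For UPN-1 minus JEKO it was -0.28 (-0.29 without CR2, which has 0 counts in both lines), with -0.04 for all genes. The comparisons share libraries, so they are not independent of each other. A planned repeat on the DMSO libraries of 72 h called 32 (MINO against JEKO), 32 (UPN-1 against JEKO) and 35 (UPN-1 against MINO) of the 44 genes, against 28, 27 and 31 at 24 h. The share of all genes called rose too, from 48%, 44.9% and 44.4% to 54.2%, 54% and 46.3%. At 72 h MINO had 24 genes higher and 8 lower than JEKO (25.8% and 28.4% of all genes), with a median difference of 0.73. UPN-1 had 9 higher and 23 lower than JEKO (25.8% and 28.2%), with a median of -0.48, and 5 higher and 30 lower than MINO (24.1% and 22.2%), with a median of -0.87. These medians include the fitted values of genes at 0 counts.

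For LCP2, LILRB1 and CR2 at least 1 line had 0 counts. LCP2 encodes SLP-76, the adaptor that T cells use in the place where B cells use BLNK. It had 224 counts over the 3 MINO DMSO 24 h libraries, 32 over the JEKO ones and 0 over the UPN-1 ones, so it was at least 76.4-fold higher in MINO and at least 10.6-fold higher in JEKO than in UPN-1, per gene read and with a floor of 3 counts over the group. The MINO level was 7.22 times that of JEKO. LILRB1, an inhibitory receptor for HLA class I, had 140 counts in MINO, 81 in JEKO and 0 in UPN-1, at least 47.8-fold and 26.8-fold higher. CR2 had 22 counts in MINO, at least 7.56-fold above JEKO and 7.51-fold above UPN-1. ZAP70, the SYK relative typical of T cells, read 89.3, 116 and 99 CPM in the MINO DMSO 24 h libraries, 11.1, 11.9 and 10.5 in JEKO, and 0.868, 0.107 and 0.659 in UPN-1. The 3 groups do not overlap, and the UPN-1 minus MINO difference was -7.46 (SE 0.35, adjusted p = 2.51e-17). SH3BP2, an adaptor that binds SYK and VAV proteins, was lower in UPN-1 than in MINO by -5.63 (SE 0.402, adjusted p = 5.09e-13), and LAT2, a membrane adaptor of B cells, by -3.96 (SE 0.265, adjusted p = 1.13e-13). LAT, which anchors LCP2 in T cells, was at or below 0.297 CPM in every library, but 46.5% of its exon length is shared with another counted gene on the same strand, where reads may not have been assigned to it.

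Of the 6 treatment comparisons, MINO at 24 h had the largest median difference of the set. Of the 44 genes, 35 had a positive and 9 a negative difference, with a median of 0.27 on the log2 scale against 0.01 over all 15028 genes tested. All 9 inhibitors were positive (median 0.35), as were 24 of 32 activators (median 0.25). In the main test 1 gene rose and 0 fell, where 1.44% of all genes rose and 0.952% fell. That gene was CD79B (chr17:63928738-63932336, ENSG00000007312), which read 505, 529 and 563 CPM in DMSO and 799, 901 and 936 with GS716054. The groups do not overlap, and the difference was 0.69 (SE 0.153, adjusted p = 0.035). The call was lost when any 1 of the 6 libraries was left out (adjusted p 0.0767 to 0.162), although the difference stayed between 0.63 and 0.74. Its exons share 13.6% of their length with a gene model on the same strand that is not among the counted identifiers.

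With the block within each time, 14 of the 44 genes were higher in MINO at 24 h and 0 lower (8.43% and 7.36% of all genes), and the planned block over both times called 6 higher and 0 lower (3.73% and 2.88%). The receptor chain CD79A read 1139, 901 and 1249 CPM in DMSO and 1849, 2054 and 1972 with GS716054, without overlap, a difference of 0.81 (SE 0.204, adjusted p = 0.059, and 0.00339 with the block). PTPRC, the phosphatase CD45 that primes Src kinases, was higher by 0.52 (adjusted p = 0.171, block 0.00807). Among adaptors and exchange factors, the same fit called BLNK at 0.50 (0.211, block 0.0414), DAPP1 at 0.60 (0.0882, block 0.00396) and the Rac exchange factor VAV1 at 0.44 (0.0925, block 0.0149). The calcium-responsive kinase PRKCB stood at 0.52 (0.204, block 0.00768). RASGRP3, which links diacylglycerol to Ras, read 1.06, 1.37 and 0.44 CPM in DMSO and 2.83, 4.45 and 2.61 with GS716054, a difference of 1.75 (0.0927, block 0.00912) at a low level. Its exons share 13.7% of their length with FAM98A on the opposite strand, and the strand setting of the counting is not given in the sources used here. The actin regulators HCLS1 and NCKAP1L differed by 0.40 (0.0947, block 0.0214) and 0.62 (0.0782, block 0.00591).

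That count of 14 held 10 activators, 3 inhibitors and 1 gene with both roles. The inhibitory receptor gene CD72 differed by 0.57 (adjusted p = 0.0728, block 0.00595), the adaptor DOK3 by 0.39 (0.131, block 0.0329) and the ubiquitin ligase gene CBL by 0.49 (0.099, block 0.00855). PRKCD, a kinase C with both roles, differed by 0.41 (0.174, block 0.0433). SYK read 323, 283 and 291 CPM in DMSO and 394, 432 and 330 with GS716054, groups that do not overlap, but neither fit called its difference of 0.34 (SE 0.142, 0.237, block 0.102). PLCG2 read 367, 327 and 372 against 417, 420 and 393 CPM, also without overlap, a difference of 0.18 (SE 0.119, 0.468, block 0.313). BTK read 380, 381 and 364 against 350, 378 and 378 CPM, and its difference was -0.05 (SE 0.118, 0.86, block 0.811). Among the 44, the most negative value belonged to CR2, at -1.81 (SE 0.9, 0.319), on 0, 0.556 and 0 CPM against 0.471, 0.77 and 0.792.

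B-cell identity genes outside the set moved in the same libraries. The summed level of 6 B-cell markers (among them MS4A1, CD74 and PAX5) was 5942 to 8031 CPM in MINO DMSO at 24 h and 10157 to 11582 with GS716054, and 5705 to 9031 against 8687 to 12992 at 72 h. In JEKO at 24 h it was 2498 to 2696 against 2272 to 2819, and in UPN-1 3189 to 3308 against 3247 to 3380. At 72 h it was 2623 to 3169 against 2607 to 3457 in JEKO, and 2957 to 3867 against 2819 to 3727 in UPN-1. Most of this sum was CD74, with means of 5204 against 8155 CPM in MINO at 24 h. At 72 h MS4A1 had means of 259 against 380 CPM in JEKO and 342 against 507 in UPN-1. CD37 went the other way, at 160 against 107 in JEKO and 139 against 122 in UPN-1. The sum of 8 T-cell markers in MINO at 24 h was 80.8 to 105 against 157 to 183 CPM, and 81.7 to 137 against 143 to 245 at 72 h. Most of that sum was 1 gene, the T-cell receptor segment TRAC, at 73.2 to 98.4 against 140 to 171 CPM at 24 h, while CD2 and CD3D had a mean of 0 CPM in every MINO group. The sum of 6 myeloid markers in MINO was 1.54 to 3.06 against 5.75 to 8.56 CPM at 24 h and 0.538 to 1.24 against 1.88 to 4.17 at 72 h, with MPO at 0. That of 5 epithelial and stromal markers, PECAM1 and EPCAM among them, was 10.1 to 12.4 against 10.8 to 13.6 CPM at 24 h and 12.4 to 18.5 against 30.2 to 38.6 at 72 h. For 5 plasma cell markers the sum in MINO was 1135 to 1496 against 1258 to 1824 CPM at 24 h, and 1474 to 2928 against 1360 to 2114 at 72 h. The sum of 3 mantle cell lymphoma markers in JEKO was 2627 to 2785 against 1461 to 1826 CPM at 24 h. At 72 h it was 2292 to 2936 against 1309 to 2011. In UPN-1 it was 2485 to 2603 against 2039 to 2246 at 24 h. At 72 h that was 2141 to 2873 against 1539 to 2046. MINO had 1939 to 2288 against 2000 to 2254 at 24 h, and 2174 to 3256 against 2395 to 3532 at 72 h. Most of this sum was CCND1, with means of 2607 against 1561 CPM in JEKO at 24 h. The part of these shifts in the results for the set was not tested.

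**Figure D2:**
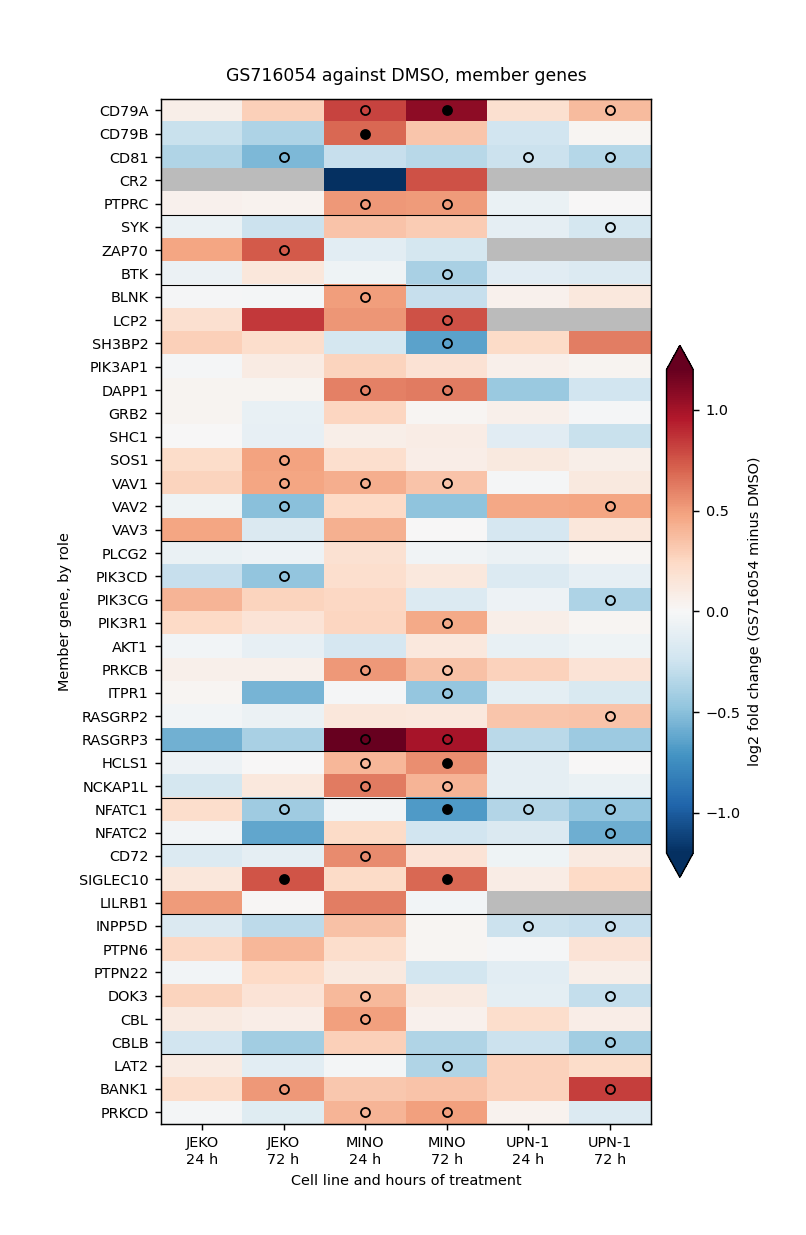
Log2 difference of GS716054 minus DMSO for each of the 44 genes (rows, ordered by role) in each line and time (columns). Filled dots mark genes called in the main test, and open dots genes called only with the block within each time. Open dots were not drawn for JEKO at 24 h, where 2 of 3 same-numbered pairs correlated over 0.1 and that block called 0 of the 43 genes. Grey cells were not tested, and colours stop at 1.2 in both directions. The MINO columns hold 5 of the 6 filled dots.

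At 72 h in MINO, 3 of the 44 genes rose and 1 fell, where 3.51% of all genes rose and 2.05% fell. The median difference of the set was 0.10 against -0.03 over all genes, 0.13 for the 32 activators and 0.02 for the 9 inhibitors. With 1 library left out, the median of the set ranged from 0.05 (without treated replicate 3) to 0.15 (without DMSO replicate 3). CD79A (chr19:41877279-41881372, ENSG00000105369) read 870, 1388 and 926 CPM in DMSO and 1806, 2623 and 2303 with GS716054. The highest DMSO library lies below the lowest treated one, and the difference was 1.07 (SE 0.205, adjusted p = 0.0102). HCLS1 (chr3:121631399-121660927, ENSG00000180353), an actin-binding substrate of SYK, read 202, 235 and 210 against 291, 342 and 329 CPM, also without overlap, a difference of 0.56 (SE 0.118, adjusted p = 0.0169). The inhibitory lectin receptor SIGLEC10 (chr19:51410020-51417803, ENSG00000142512) read 67.2, 85.2 and 63.4 against 85.6, 148 and 119 CPM. The highest DMSO and the lowest treated library nearly meet, and the difference was 0.69 (SE 0.174, adjusted p = 0.0357). NFATC1 (chr18:79395856-79529325, ENSG00000131196), a transcription factor activated by calcium, was the gene that fell, from 365, 536 and 393 CPM to 242, 307 and 264, a difference of -0.68 (SE 0.156, adjusted p = 0.0247).

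These 4 calls depended on which libraries entered the fit. Without the second DMSO library, its same-numbered treated library kept, 6 of the 44 genes rose and 3 fell (5.7% and 4.16% of all genes). Those that gained a call were CD79B (0.47, adjusted p = 0.0343), PTPRC (0.70, adjusted p = 0.0172) and PRKCB (0.58, adjusted p = 0.0469) on the higher side and SH3BP2 (-0.87, adjusted p = 0.0144) and LAT2 (-0.62, adjusted p = 0.0402) on the lower side. CD79A (1.27), HCLS1 (0.59), SIGLEC10 (0.79) and NFATC1 (-0.54) kept theirs. CD79A lost its call only without DMSO replicate 1 (adjusted p = 0.0504), NFATC1 without treated replicate 1 or 3 (up to 0.0767), HCLS1 without DMSO replicate 1 or 3 or treated replicate 3 (up to 0.0805), and SIGLEC10 without DMSO replicate 1 or 3 or treated replicate 2 or 3 (up to 0.127). A fit of only the 6 libraries compared called 0 of the 44, with adjusted p = 0.113 for CD79A, 0.162 for HCLS1, 0.175 for NFATC1 and 0.209 for SIGLEC10. SIGLEC10 shares 22.6% of its exon length with the antisense gene SIGLEC10-AS1, and without a stated strand setting reads of the pair cannot be told apart.

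The block within each time called 12 genes higher and 5 lower in MINO at 72 h (10.4% and 9.8% of all genes), and the planned block over both times called 6 higher and 1 lower (5.96% and 4.26%). Beyond the 4 genes above, PTPRC differed by 0.51 (adjusted p = 0.13, block 0.0065), LCP2 by 0.76 (0.172, block 0.0295), DAPP1 by 0.62 (0.0564, block 0.00239) and VAV1 by 0.34 (0.146, block 0.0454). In the enzyme group, PIK3R1, the regulatory subunit of phosphoinositide 3-kinase, differed by 0.45 (0.0501, block 0.00978), PRKCB by 0.35 (0.34, block 0.0389) and RASGRP3 by 0.99 (0.236, block 0.0471). NCKAP1L stood at 0.41 (0.178, block 0.0401) and PRKCD at 0.49 (0.0766, block 0.0129). On the lower side, BTK (chrX:101349338-101390796) read 366, 429 and 375 CPM in DMSO and 294, 280 and 330 with GS716054, without overlap, a difference of -0.39 (SE 0.118, 0.0758, block 0.0342). SH3BP2 differed by -0.64 (0.101, block 0.0185), the calcium channel gene ITPR1 by -0.46 (0.284, block 0.0288) and LAT2 by -0.36 (0.354, block 0.0382). CD79B was no longer separated, at 496, 699 and 513 against 655, 707 and 811 CPM, a difference of 0.33 (SE 0.153, 0.219, block 0.0906). SYK read 289, 248 and 303 against 367, 363 and 316 CPM, without overlap, a difference of 0.30 (SE 0.142, 0.233, block 0.113). PLCG2 read 335, 369 and 358 against 309, 379 and 357, a difference of -0.04 (SE 0.119, 0.885, block 0.833). The plot of levels in each library shows the separation for the named genes.

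**Figure D3:**
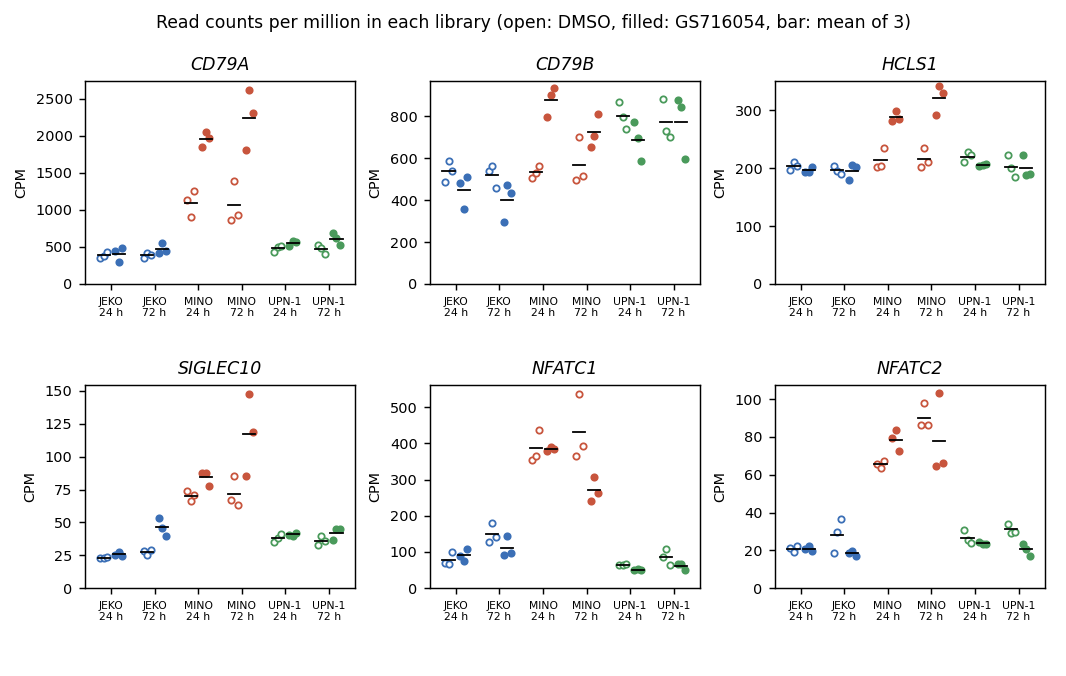
CPM of selected genes in each of the 36 libraries, by line, time and agent; each point is 1 library and each bar the mean of its 3. CD79A of MINO shows treated libraries above all DMSO libraries at both times.

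JEKO had few calls. At 24 h, 0 of 43 genes tested were called by edgeR's quasi-likelihood test, where 0.018% of all 16690 genes were called in either direction. An unadjusted p under 0.05 was reached by 1 of the 43 and by 662 of all genes. DESeq2 called 0 of the 44 it fitted (0.0864% of all genes it fitted). With the block within each time, 0 of the 43 were called (0.0899% of all genes). In the main test the median difference was 0.02, with -0.01 over all genes. CD79A read 354, 378 and 432 CPM in DMSO and 451, 290 and 488 with GS716054 (0.07, SE 0.195, adjusted p = 1), and CD79B 488, 585 and 540 against 483, 357 and 508 (-0.27, SE 0.197, adjusted p = 1). SYK read 511, 502 and 488 against 493, 498 and 442 CPM (-0.08, SE 0.195, adjusted p = 1). BTK read 200, 193 and 178 against 181, 178 and 191 (-0.07, SE 0.12, adjusted p = 1), and PLCG2 362, 352 and 379 against 348, 351 and 342 (-0.08, SE 0.191, adjusted p = 1). The groups overlap in 4 of these 5 genes, and do not in PLCG2. How many of all genes have groups that do not overlap was not counted in any comparison.

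At 72 h in JEKO, SIGLEC10 was the only gene called, with 1 of 43 higher and 0 lower (0.204% and 0.0959% of all genes). It read 28.4, 25.5 and 28.9 CPM in DMSO and 53.7, 45.9 and 39.7 with GS716054, without overlap, a difference of 0.75 (SE 0.135, adjusted p = 0.0299). The call was lost in 5 of 6 fits that left out 1 library (all but the one without treated replicate 3, adjusted p 0.0467 to 0.115 over the 6) and when just the 6 libraries compared were fitted (0.352). The median difference of the 43 genes was -0.00, as over all genes (0.00). With the block within each time, 5 genes were higher and 4 lower (1.89% and 1.44% of all genes), and the planned block over both times called 1 higher and 0 lower (0.509% and 0.168%). The higher ones besides SIGLEC10 were ZAP70, at 23.7, 20.2 and 20.5 against 49.9, 28 and 29.2 CPM (0.74, adjusted p = 0.185, block 0.0222), the Ras exchange factor SOS1 (0.48, 0.208, block 0.0424), VAV1 (0.47, 0.252, block 0.0318) and BANK1, a scaffold that binds LYN and the calcium channel (0.52, 0.156, block 0.0223). The lower ones were the co-receptor CD81 (-0.54, 0.63, block 0.0469), VAV2 (-0.50, 0.342, block 0.0396), PIK3CD, the catalytic delta subunit (-0.47, 0.413, block 0.0354), and NFATC1 (-0.43, 0.636, block 0.0355).

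The receptor chains and proximal enzymes of JEKO were not called at 72 h in either fit. CD79A read 344, 420 and 391 against 418, 548 and 442 CPM (0.29, SE 0.195, adjusted p = 0.795), and CD79B 537, 565 and 458 against 296, 470 and 436 (-0.37, SE 0.197, 0.671). SYK read 295, 439 and 355 against 217, 373 and 315 (-0.26, SE 0.195, 0.831), BTK 161, 167 and 161 against 189, 178 and 171 (0.14, SE 0.12, 0.864), and PLCG2 254, 454 and 350 against 288, 404 and 321 (-0.06, SE 0.191, 0.981). The BTK groups do not overlap, and the other 4 do.

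UPN-1 had no call in the main test at either time. At 24 h, 0 of 40 genes were called, where 0.0262% of all 15248 genes were. An unadjusted p under 0.05 was reached by 5 of the 40 and by 577 of all genes. DESeq2 called 0 of the 43 genes it fitted at 24 h (0.0767% of all genes it fitted). At 72 h it called 0 higher and 1 lower (0.39% and 0.101%), the latter NFATC2 (-0.59, adjusted p = 0.0246). The median differences were -0.07 at 24 h and 0.01 at 72 h, with 0.00 and -0.00 over all genes. The block within each time called 0 higher and 3 lower at 24 h (0.918% and 0.577% of all genes), and the planned block 0 (0.0787% in either direction). The 3 were CD81 at -0.26 (adjusted p = 1, block 0.0197), NFATC1 at -0.35 (1, block 0.0297) and INPP5D at -0.26 (1, block 0.0212), each without overlap between the groups. CD79A read 429, 505 and 506 against 511, 582 and 563 CPM, without overlap (0.19, SE 0.141, adjusted p = 1), and CD79B 866, 796 and 738 against 772, 698 and 586 (-0.23, SE 0.165, 1). SYK read 371, 387 and 349 against 371, 337 and 326 (-0.11, SE 0.124, 1), BTK 167, 163 and 155 against 148, 150 and 146, without overlap (-0.14, SE 0.109, 1), and PLCG2 304, 307 and 311 against 310, 295 and 281 (-0.07, SE 0.11, 1).

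After 72 h, 0 of the 40 genes were called in UPN-1, with 0.334% of all genes called. An unadjusted p under 0.05 was reached by 12 of the 40 and by 1130 of all 15248 genes. The block within each time called 4 higher and 8 lower (4.18% and 3.29% of all genes), while the planned block over both times called 0 higher and 1 lower (1.15% and 0.315%). CD79A read 531, 479 and 408 CPM in DMSO and 688, 617 and 521 with GS716054, overlapping as groups but higher with GS716054 in each of the 3 pairs (0.38, SE 0.141, adjusted p = 0.472, block 0.000189). VAV2 (0.47, 0.316, block 0.0179), RASGRP2 (0.34, 0.635, block 0.0337) and BANK1 (0.83, 0.567, block 0.0396) were the other higher ones. BANK1 read 1.82, 3.27 and 3.85 against 3.37, 5.18 and 7.16 CPM, a low level with overlapping groups. NFATC2 read 34, 29.4 and 29.9 against 23.3, 20.9 and 17.2 CPM, without overlap (-0.59, SE 0.142, 0.115, block 0.0009), and NFATC1 84.7, 107 and 65.2 against 67.4, 66.3 and 50.3 (-0.46, 0.369, block 0.000837). CD81 (-0.34, 0.518, block 0.000584), SYK (-0.21, SE 0.124, 0.833, block 0.0315) and PIK3CG (-0.37, 0.485, block 0.0435) were lower among the remaining activators. Of the inhibitors, 3 were lower too, namely INPP5D (-0.28, 0.596, block 0.00316), DOK3 (-0.29, 0.646, block 0.0148) and CBLB (-0.42, 0.596, block 0.0186). SYK read 413, 368 and 347 against 357, 329 and 279 CPM. CD79B read 883, 730 and 699 against 877, 846 and 596 (0.02, SE 0.165, 0.998), BTK 127, 142 and 152 against 111, 134 and 126 (-0.16, SE 0.109, 0.875) and PLCG2 328, 344 and 296 against 317, 353 and 304 (0.02, SE 0.11, 0.998). The 4 genes not tested in UPN-1 stayed at or below 1.88 CPM in each of its libraries.

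**Figure D4:**
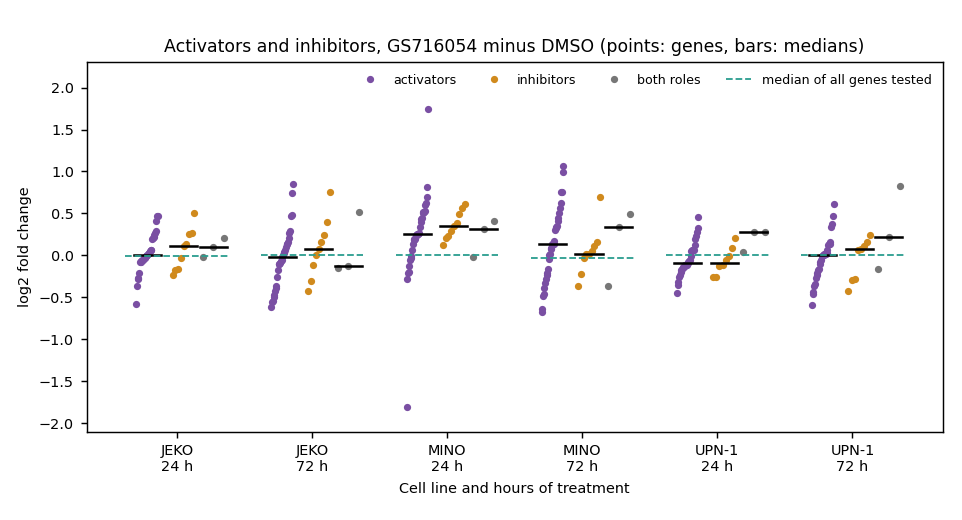
Log2 difference of GS716054 minus DMSO for each tested gene, by line and time, with activators, inhibitors and genes with both roles drawn apart (points: genes, bars: medians). In MINO at 24 h the medians are 0.25 for activators and 0.35 for inhibitors, and in JEKO and UPN-1 activator medians lie between -0.09 and 0.00.

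Averaged over the lines in the 36-library fit, 0 of the 44 genes were called at 24 h (0.929% of all 17980 genes). An unadjusted p under 0.05 was reached by 9 of the 44 and by 2243 of all genes. With the block within each time, 8 were higher and 1 lower (5.44% and 3.77% of all genes), and with the planned block 1 higher and 0 lower (1.67% and 0.69%). These averages include JEKO at 24 h, where 2 of 3 same-numbered pairs correlated over 0.1. The higher ones were CD79A (0.37, adjusted p = 0.103, block 0.00223), PTPRC (0.18, 0.467, block 0.0374), VAV1 (0.25, 0.0978, block 0.00563), PIK3R1 (0.21, 0.327, block 0.0373), PRKCB (0.30, 0.423, block 0.00258), DOK3 (0.20, 0.326, block 0.0383), CBL (0.29, 0.228, block 0.0244) and BANK1 (0.29, 0.368, block 0.045). The lower one was CD81 (-0.29, 0.354, block 0.00579). The median mean effect was 0.13 against 0.01 over all genes.

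At 72 h the average over lines called 7 of the 44 genes, 4 higher and 3 lower, where 3% of all genes were higher and 1.66% lower. SIGLEC10 rose by 0.56 (SE 0.084, adjusted p = 5.92e-05), where JEKO had 0.75, MINO 0.69 and UPN-1 0.24. CD79A rose by 0.58 (SE 0.109, adjusted p = 0.0011), with 0.29, 1.07 and 0.38 in the same order of lines. BANK1 rose by 0.56 (SE 0.134, adjusted p = 0.00981), with 0.52, 0.34 and 0.83, and VAV1 by 0.31 (SE 0.0722, adjusted p = 0.00885), with 0.47, 0.34 and 0.12. BANK1 read 41.3, 49 and 54.5 against 66.4, 72.5 and 68.1 CPM in JEKO, without overlap. In MINO it read 18.7, 15 and 17.7 against 22.4, 16.8 and 26.8, with overlap. Its value in UPN-1 rests on a low level, at 1.82, 3.27 and 3.85 against 3.37, 5.18 and 7.16 CPM, also with overlap. Both calcium-dependent transcription factors of the set fell: NFATC1 with a mean of -0.53 (SE 0.11, adjusted p = 0.00312), with -0.43, -0.68 and -0.46, and NFATC2 with a mean of -0.48 (SE 0.099, adjusted p = 0.00278), with -0.62, -0.23 and -0.59. NFATC3, an NFAT gene outside the 44, did not fall at 72 h. It read 36.3, 52.8 and 50.8 against 43, 60.6 and 49.3 CPM in JEKO. In MINO it read 64.8, 85.5 and 66.5 against 72.7, 86.4 and 93.1. In UPN-1 it read 54.4, 53.4 and 65.7 against 59.9, 64.5 and 76.4. The NFATC3 groups overlap in each line. CBLB, a ubiquitin ligase that restrains receptor signals, fell with a mean of -0.40 (SE 0.118, adjusted p = 0.041), with -0.42, -0.36 and -0.42. In all 7 the 3 lines had the same sign. The calls rest on the mean of these same values, so the shared sign is no separate evidence. The plot of mean effects shows these genes with the single lines beside them.

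**Figure D5:**
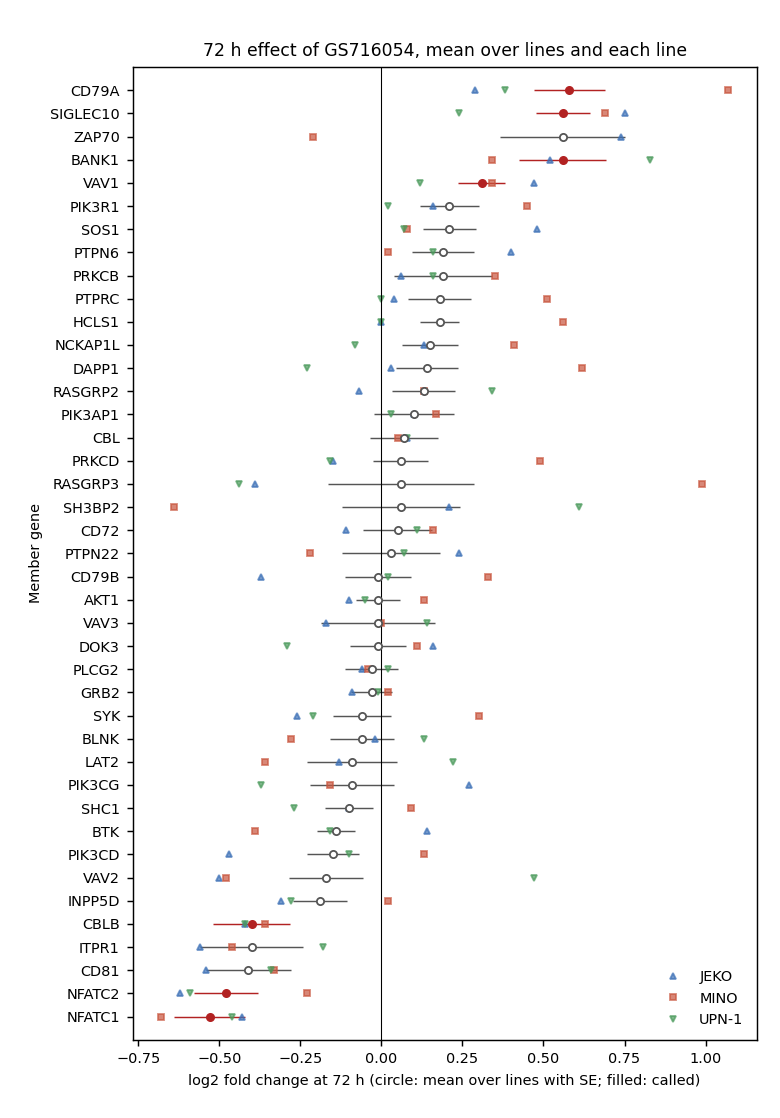
Mean log2 difference over the 3 lines at 72 h (circle, with its SE; filled where called) and the difference in each line (coloured marks) for 41 genes; CR2, LCP2 and LILRB1, which have a group with 0 counts, are not drawn. Among the called genes, CD79A, BANK1 and SIGLEC10 lie highest, and NFATC1 and NFATC2 lowest.

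When each replicate number was left out of all groups in turn, SIGLEC10 kept its call 3 of 3 times (adjusted p 0.00151 to 0.0241). CD79A and NFATC2 lost theirs without replicate 3 (0.083 and 0.264), VAV1, NFATC1 and BANK1 without replicate 1 or 3 (up to 0.152, 0.084 and 0.121), and CBLB each time (0.0505 to 0.276), so 1 of the 44 genes was called without replicate 3. CBLB was also not called with DESeq2's size factors (0.0516), nor VAV1 without the low-count filter (0.0755). With the block within each time 12 genes were higher and 6 lower (8.21% and 8.44% of all genes), and with the planned block 6 were higher and 5 lower (4.93% and 3.67%). Added on the higher side were PTPRC (0.18, adjusted p = 0.337, block 0.0159), ZAP70 (0.56, 0.0899, block 0.0179), SOS1 (0.21, 0.154, block 0.0335), PIK3R1 (0.21, 0.209, block 0.0197), PRKCB (0.19, 0.579, block 0.0173), HCLS1 (0.18, 0.0757, block 0.011) and PTPN6 (0.19, 0.272, block 0.0135). The remaining one, LCP2, rests on UPN-1 groups at 0 counts, and its fitted value is not given. Added on the lower side were CD81 (-0.41, 0.0686, block 0.000112), ITPR1 (-0.40, 0.156, block 0.00687) and INPP5D (-0.19, 0.213, block 0.0278). The median mean effect was 0.04 (0.03 without the 3 genes with groups at 0 counts), against -0.01 over all genes.

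Whether the lines responded differently was tested with 1 F test per gene. At 24 h, 0 of the 44 genes were called (0.106% of all genes), and with the block within each time 10 (5.74%). That fit includes JEKO at 24 h, where 2 of 3 same-numbered pairs correlated over 0.1. The planned block called 4 (1.37%). The 10 were CD79A (adjusted p = 0.463, block 0.0114), CD79B (0.0946, block 0.00346), PTPRC (0.621, block 0.00786), DAPP1 (0.0922, block 0.000354), RASGRP3 (0.162, block 0.00914), HCLS1 (0.186, block 0.0108), NCKAP1L (0.105, block 0.00107), NFATC1 (0.863, block 0.0308), CD72 (0.449, block 0.00361) and INPP5D (0.353, block 0.0123). DAPP1, an adaptor that binds lipid products of phosphoinositide 3-kinase, read 36.6, 33.4 and 32.6 against 48.5, 54.6 and 55.9 CPM in MINO and 28.8, 22.4 and 21.4 against 20.4, 18.3 and 14.9 in UPN-1, so the groups separated in opposite directions. At 72 h, HCLS1 was the 1 gene called (adjusted p = 0.0411; 1.01% of all genes), where MINO had a difference of 0.56 and JEKO and UPN-1 had -0.00 each. That call was lost when any replicate number was left out (0.169 to 0.795) and without the low-count filter (0.522). The planned block called 2 (2.94% of all genes) and the block within each time 13 (9.78%), among them CD79A (0.226, block 0.00475), SYK (0.316, block 0.0108), ZAP70 (0.2, block 0.00465), BTK (0.165, block 0.0276) and DAPP1 (0.119, block 0.000656). The others were CD79B (0.329, block 0.0456), PTPRC (0.477, block 0.0103), VAV2 (0.121, block 0.0106), PIK3CD (0.256, block 0.013), RASGRP3 (0.341, block 0.0434), SIGLEC10 (0.343, block 0.0459), PRKCD (0.131, block 0.00796) and HCLS1 itself (block 0.00196).

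The effect at 72 h was not called different from that at 24 h for any of the 44 genes in any line. Over all genes, JEKO had 0% called, MINO 0.0133% and UPN-1 0%. Without replicate 2, 0 of the 44 were higher and 3 lower in MINO (0.867% and 1.18% of all genes), namely SH3BP2 (-0.87, adjusted p = 0.0235), ITPR1 (-0.87, adjusted p = 0.0209) and NFATC2 (-0.59, adjusted p = 0.0366).

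A further 55 genes of the pathway, 37 activators and 18 inhibitors, were read from a list of the same pathway. In MINO at 24 h, 6 of 51 tested rose and 0 fell, where 1.44% of all genes rose and 0.952% fell. The 3 with the smallest adjusted p were STAP1, an adaptor that binds kinases of the receptor (0.86, SE 0.119, adjusted p = 0.00572), LAIR1, an inhibitory collagen receptor (1.03, adjusted p = 0.00593), and LYN, the Src kinase that starts and also damps the signal (0.76, SE 0.133, adjusted p = 0.0155). STAP1 read 28.1, 26.2 and 26.8 CPM in DMSO and 51, 50.8 and 47.9 with GS716054. In MINO at 72 h, 9 of 51 rose and 0 fell (3.51% and 2.05% of all genes), led by STAP1 (1.03, adjusted p = 0.000586), the inhibitory adhesion receptor PECAM1 (2.19, adjusted p = 0.00254) and the inhibitory receptor CEACAM1 (1.58, adjusted p = 0.00988). PECAM1 read 3.61, 2.57 and 3.46 CPM in DMSO and 11.4, 21 and 12.5 with GS716054. Of the inhibitors in this list, 3 of 16 tested rose at 24 h and 5 of 16 at 72 h, set against the same shares of all genes. In JEKO 0 of 52 and in UPN-1 0 of 51 were called at either time. By an unadjusted p under 0.05, 1 and 8 of the 52 passed in JEKO at 24 and 72 h, and 1 and 1 of the 51 in UPN-1. Over all genes, 662 and 1438 of 16690 passed in JEKO, and 577 and 1130 of 15248 in UPN-1. Averaged over lines, LYN rose at 24 h (0.41, adjusted p = 0.00288), with JEKO at 0.30, MINO at 0.76 and UPN-1 at 0.14. At 72 h STAP1 rose by 0.64 on average (0.45, 1.03 and 0.45 in the same order of lines) and CEACAM1 by 0.74 (0.22, 1.58 and 0.43). The mean of PECAM1 was called at 0.54 (adjusted p = 0.0403) with opposite signs among the lines, at 2.19 in MINO but -0.20 in JEKO and -0.37 in UPN-1. PECAM1 read 20.7, 27.4 and 21.5 against 20, 24 and 16.3 CPM in JEKO and 13.5, 15.4 and 11.1 against 11.7, 13.3 and 5.61 in UPN-1, groups that overlap. The effect differed among lines at 72 h for BCL10 (adjusted p = 0.0333), part of the complex that leads to NF-kappaB, and PECAM1 (adjusted p = 0.000474). BCL10 read 23.2, 33 and 23.5 against 38.4, 49.5 and 43.7 CPM in MINO, 11.3, 12.4 and 11.9 against 11.1, 14.4 and 10.9 in JEKO, and 24.2, 25.1 and 21.9 against 23.3, 21 and 19.1 in UPN-1.

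The CpG content shown for the 4 genes above was also set against the fold changes of all genes with a listed start, after the values had been seen. In MINO at 24 h, Spearman's rho across 39 of the 44 genes was -0.55 with the first listed start and -0.48 with the most CpG-rich start, against -0.11 and -0.10 across 10248 genes. Thus genes of the set with fewer CpG before their start tended to the higher differences in that comparison, as a description across genes that share libraries and are not independent. In the other 13 comparisons examined, under the same 2 start rules, rho of the set lay between -0.47 and 0.30, and 28 correlations were computed in all. In MINO at 72 h rho of the set was -0.28 and -0.26, against -0.05 and -0.03 across all genes. With the first listed start, the set's median difference there was 0.11 both below 10 CpG (21 genes) and at or above it (18 genes). With the most CpG-rich start these medians were 0.25 (18 genes) and 0.08 (21 genes). Over all genes they were 0.07 and -0.04 with the first rule, and 0.09 and -0.04 with the other. Of the genes printed above, CD79A, with 4 CpG, had a MINO difference of 0.81 at 24 h, and NFATC1, with 34 and 32, had -0.03 at 24 h and -0.68 at 72 h. HCLS1, with 2 CpG, read 202, 204 and 235 against 281, 298 and 284 CPM in MINO at 24 h. SIGLEC10, with 4, read 73.9, 66.2 and 71 against 87.6, 87.4 and 77.6. Both differences were smaller than that of CD79A.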

How the data were processed

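RNA from 3 cell lines, 2 agents and 2 times was sequenced in 36 libraries. The authors deposited raw counts per Ensembl gene, 1 table per library with 58302 identifiers and 5 summary lines. Per the submitters' processing notes, HISAT2 2.2.1, HTSeq 0.13.5 and the GRCh38 build were used. Per the labels, RNA came from a Qiagen mRNA kit. Strand setting and annotation release are not given in the sources used here. The summary lines stayed out of library sizes and tests; reads in no feature made up 43.253% to 45.927% of reads per library.

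Symbols, positions and exon lengths came from GENCODE v44, which holds 57532 of the identifiers. The tests used edgeR 4.0.16 under R 4.3.3 (TMM scaling, filterByExpr at min.count 10 and min.total.count 15, quasi-likelihood test, Benjamini-Hochberg adjustment over all genes tested). Each line was fitted on its 12 libraries (8 residual degrees of freedom), and a fit of 36 libraries (24) gave the mean effect, the difference among lines and the DMSO comparisons. The SE is the absolute log2 difference over the root of the F statistic. The scripts were tested on simulated counts. Alternatives were other size factors and filters, DESeq2 1.42.0, other sample sets, replicate blocks and leaving out libraries. Limits for 0 counts use a floor of 3 counts and cover counting error only.

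Replicate numbers come from a label that calls them biological replicates, with no word on shared days or cultures, so p-values measure only the spread between these samples, which may be technical. Deviations of same-numbered DMSO and treated libraries correlated over 0.1 in all 3 pairs in 5 of 6 comparisons (r 0.107 to 0.593), and in 2 of 3 pairs in JEKO at 24 h (0.055 to 0.213). Some pairs of unlike number correlated too. In MINO at 72 h, DMSO replicate 3 had r = 0.332 with treated replicate 1 and 0.287 with treated replicate 3. DMSO replicate 1 had r = 0.213 with treated replicate 3 and 0.467 with treated replicate 1. The block within each time was added after seeing the same-numbered correlations and the calls of the other fits.

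The 44 genes, their roles and the other lists were chosen with earlier results of these data known. All 44 are accounted for. Library values are given for genes called in the main test of GS716054 against DMSO within a line, and for CD79A, CD79B, SYK, BTK and PLCG2. They are not given for every gene called only in the average over lines. Also given are both adjusted p for genes called only with the block, the 3 highest levels per line and the 6 largest line differences in DMSO. Up to 3 called genes of the further pathway list are named per comparison. Library values of a few other genes were added after they were seen.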

Additional observations from a re-analysis of the deposited data

Results flagged for a closer look

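The effect of GS716054 at 72 h differed among the 3 lines, by edgeR's F test of the difference itself, for 1 of the 44 genes and 2 of the further pathway genes, where 1.01% of all genes were called. For HCLS1 the adjusted p was 0.0411, where MINO had a log2 difference of 0.56 and JEKO and UPN-1 had -0.00 each. For BCL10 it was 0.0333, and the MINO libraries lay at 23.2, 33 and 23.5 CPM in DMSO and 38.4, 49.5 and 43.7 with GS716054, JEKO at 11.3, 12.4 and 11.9 against 11.1, 14.4 and 10.9, and UPN-1 at 24.2, 25.1 and 21.9 against 23.3, 21 and 19.1. For PECAM1 it was 0.000474, with 3.61, 2.57 and 3.46 against 11.4, 21 and 12.5 CPM in MINO, 20.7, 27.4 and 21.5 against 20, 24 and 16.3 in JEKO, and 13.5, 15.4 and 11.1 against 11.7, 13.3 and 5.61 in UPN-1. Its log2 difference was 2.19 in MINO, -0.20 in JEKO and -0.37 in UPN-1.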

How the results depend on the processing

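The DMSO comparisons between lines kept their counts of called genes within 1.5 times under every alternative tried, but 2 of their 3 medians moved further in the DMSO libraries of 72 h, from 0.42 to 0.73 and from -0.28 to -0.48. Treatment counts moved more, and the share of all genes called, given in brackets, moved with the setting too. For JEKO at 72 h (1 of the 43 genes tested called; 0.3%), the count was 9 with the block within each time (3.34%), 1 with the planned replicate block over both times (0.677%), 2 with DESeq2 (0.659%), 2 with no low-count filter (1.14%), 0 with only the 6 libraries compared (0.0122%) and 0 to 1 with 1 library left out. For MINO at 24 h (1 called; 2.39%), it was 14 with the block within each time (15.8%), 6 with the planned block (6.61%), 9 with DESeq2 (3.3%), 6 with no filter (3.85%), 2 with the stricter filter of minimum count 50 (3.55%), 14 with only 6 libraries (18.2%), 7 with all 36 (4.23%) and 0 (0.175% to 0.59%) with any 1 library left out. For MINO at 72 h (4 called; 5.56%), these were 17 (20.2%) and 7 (10.2%) for the blocks, 8 with DESeq2 (5.35%), 0 with only 6 libraries (0.691%), 7 with all 36 (7.86%) and 1 to 9 (2.33% to 9.86%) with 1 library left out. UPN-1 (0 called) went to 3 at 24 h with the block within each time (1.5%), and at 72 h to 12 with it (7.47%) and to 1 each with the planned block (1.46%), DESeq2 (0.491%) and no filter (0.805%). The mean effect went from 0 at 24 h to 9 (9.2%) and 1 (2.36%) with the blocks, and from 7 at 72 h to 18 (16.7%) and 11 (8.6%), with 1 to 6 when a replicate number was left out. The difference among lines went from 0 at 24 h to 10 (5.74%) and 4 (1.37%) with the blocks and 2 with no filter (0.764%), and from 1 at 72 h to 13 (9.78%) and 2 (2.94%) with the blocks, 3 with no filter (1.67%) and 0 when any replicate number was left out. The MINO time difference ranged from 0 to 3 (0% to 2.05%) when a replicate number was left out. The cause was not tested, beyond the fewer libraries or genes that some settings hold by construction.

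For single genes, 1276 values kept sign and side of the threshold, 174 gained a call, 43 lost one and 11 turned sign, the last each with 1 library left out and in differences that were not called. With 1 library left out, CD79A in JEKO at 24 h ranged from -0.0765 to 0.27 on the log2 scale. PLCG2 ranged from -0.252 to 0.152 in JEKO, from -0.1 to 0.0307 in MINO and from -0.0351 to 0.0713 in UPN-1, and CD79B in UPN-1 from -0.0788 to 0.168, all at 72 h. Depth limits the genes with few reads: CR2, LCP2 and LILRB1 have groups at 0 counts, and RASGRP3 in MINO DMSO at 24 h rests on 0.44 to 1.37 CPM.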
